A study of Homo sapiens with 6 samples.

Results

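The genes described here are mucins, with MUC5AC as the leading member. The rule named 6 mucins (MUC5AC, MUC5B, MUC1, MUC13, MUC16 and MUC20), and 3 of them, MUC5AC, MUC5B and MUC1, had a row among the 12308 different rows of the deposited RNA-seq table. MUC13, MUC16 and MUC20 were not analysed here. MUC5AC was chosen because it had the lowest log2 fold change of all 11766 genes tested between the cell lines, so the values of the members in this comparison are given as a description without a test. The next lowest genes were AGR2 (log2 fold change -5.93) and CD74 (-5.29), against -6.34 for MUC5AC. The order of MUC5AC and AGR2 turned without OVCAR5 replicate 3, where they had -6.78 and -7.60. It also turned, by a small margin, without OVCAR5R replicate 2, where they had -6.07 and -6.09.

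Total RNA was sequenced from 3 cultures each. The first group was OVCAR5, a parental line of high-grade serous ovarian cancer per the study, p53 null and with wild-type BRCA, and the second was OVCAR5R, its derivative that is resistant to the CHK1 inhibitor prexasertib (Prex). OVCAR5R was grown out of OVCAR5 in rising Prex concentrations up to 3 µM over 3 to 4 months and was then kept at 2 µM, with at least 4 days without drug before use. Both lines were grown in RPMI1640 with serum, pyruvate and insulin. OVCAR5R is a single derived line, which is not stated to be 1 clone, so drug selection and drift of the line cannot be told apart in this design.

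Mucins are heavily O-glycosylated proteins whose central part is built from repeats rich in serine, threonine and proline. MUC5AC and MUC5B are secreted, gel-forming mucins that are assembled into large polymers in the endoplasmic reticulum and Golgi. Both occur in the mucus of the airways and the endocervix. MUC1 and MUC4 are membrane mucins of glandular epithelia, with a short cytoplasmic tail and a glycosylated ectodomain. MUC5AC and MUC1 are widely used as markers of mucinous and glandular tumors.

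The repeats distinguish mucin transcripts from most others, and a stretch of the coding sequence of MUC5B and MUC1 is shown for that reason. The sequences come from GENCODE release 29 on GRCh38, on the strand of the transcript, and the capitals mark the 24-base word that occurs most often in the coding sequence of that gene.
MUC5B: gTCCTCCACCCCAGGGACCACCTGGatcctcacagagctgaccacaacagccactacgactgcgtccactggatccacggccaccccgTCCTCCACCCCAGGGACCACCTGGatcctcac
MUC1: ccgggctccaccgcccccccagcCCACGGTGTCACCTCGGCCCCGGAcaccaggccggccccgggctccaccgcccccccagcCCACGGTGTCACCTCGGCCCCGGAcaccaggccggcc
These stretches of 120 bases lie in coding exons at chr11:1250113-1250232 (plus strand) and chr1:155189653-155189772 (minus strand). The marked word occurs 6 times in the 17286 coding bases of MUC5B and 40 times in the 3786 coding bases of MUC1. Words of 24 bases that occur more than once make up 40.9% of the coding sequence of MUC5B and 55.7% of MUC1. The transcripts of MUC5AC and MUC5B share 66 words of 50 bases, of 15208 different ones in MUC5AC, and neither shares any with MUC1. Reads within shared words could be assigned to either gene, so the split between MUC5AC and MUC5B is uncertain to that extent.

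MUC5AC occupies bases 1157953 to 1201138 of chromosome 11 in GRCh38 (plus strand, ENSG00000215182.8), and its longest transcript has 49 exons and 17.4 kb. OVCAR5 replicates 1, 2 and 3 had normalized values of 120, 225 and 65.9, and the OVCAR5R replicates in that order had 1.41, 0.0362 and 0.373. Every OVCAR5R library was below every OVCAR5 library, and the lowest OVCAR5 library was 46.6 times the highest OVCAR5R library. The OVCAR5 mean was 137 ± 81.1 and that of OVCAR5R 0.608 ± 0.718 (SD, n = 3 each), which makes the mean of OVCAR5 226 times that of OVCAR5R. On the log2(value + 1) scale the fold change was -6.34 (standard error 0.49), which understates the ratio because 2 of the 3 OVCAR5R values were below the pseudocount of 1. In such bulk samples, fewer cells with MUC5AC and less MUC5AC RNA per cell cannot be told apart.

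The low values in OVCAR5R rested on few reads. Within a library all values are multiples of a hundredth of 1 estimated read, and in units of estimated reads MUC5AC had 4934, 7782 and 2601 estimated reads in OVCAR5 and 75, 2 and 20 in OVCAR5R, in the order of the replicates. For OVCAR5R replicate 2, the 95% Poisson interval around 2 reads was 0.242 to 7.22 reads, a value of 0.00438 to 0.131. This exact interval covers counting error only. The value of OVCAR5R replicate 2 thus stood on 2 reads, and the libraries of OVCAR5R differed among themselves by 39.1 times.

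MUC5B starts 65.1 kb from the start of MUC5AC on the same strand of chromosome 11, from 1223066 to 1262172 (ENSG00000117983.17). OVCAR5 replicates 1, 2 and 3 had normalized values of 12.6, 38.5 and 1.76, and the OVCAR5R replicates in that order had 0.226, 0.0543 and 0.248. The OVCAR5R libraries were again all below the OVCAR5 libraries, but OVCAR5 replicate 3 was only 7.11 times the highest OVCAR5R library. All 3 OVCAR5R values were below 1, so MUC5B passed the filter of 1 in 3 libraries only through OVCAR5. Its lack of overlap was thereby fixed in advance among the genes tested. The OVCAR5 mean was 17.6 ± 18.9, that of OVCAR5R 0.176 ± 0.106 (SD, n = 3 each), and the difference on the log2 scale was -3.28 (standard error 0.84). In OVCAR5R, MUC5B had 12, 3 and 13.3 estimated reads, with an exact 95% Poisson interval of 0.619 to 8.77 around the 3 reads of replicate 2. The antisense gene MUC5B-AS1 is annotated within MUC5B, and whether the counting used strand is not given in the sources used here.

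MUC1 differed from both. It lies on chromosome 1 from 155185824 to 155192916 (minus strand, ENSG00000185499.16), in a transcript of 4.17 kb with 11 exons. OVCAR5 replicates 1, 2 and 3 had normalized values of 5.01, 96.5 and 1.34, and the OVCAR5R replicates in that order had 0.942, 3.15 and 3.50. The libraries overlapped, since OVCAR5 replicate 3 was below OVCAR5R replicates 2 and 3, and OVCAR5 replicate 2 was 19.3 times the next OVCAR5 library. The OVCAR5 mean was 34.3 ± 53.9, that of OVCAR5R 2.53 ± 1.39 (SD, n = 3 each), and the difference on the log2 scale was -1.75 (standard error 1.20). Without OVCAR5 replicate 2 it was -0.18, so the lower mean of MUC1 in OVCAR5R rested on 1 library.

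OVCAR5 replicate 2 stood apart from the other libraries over all genes. Pearson's r across the genes tested was 0.898 and 0.883 between OVCAR5 replicate 2 and replicates 1 and 3, and 0.955 between replicates 1 and 3. It was the highest OVCAR5 library for each of the 3 mucins, and the highest for 37.7% of all genes tested. Without it, the mean of OVCAR5 was 153 times that of OVCAR5R for MUC5AC (log2 fold change -5.90), 40.8 times for MUC5B (-2.39) and 1.25 times for MUC1. Of the 3 members, MUC5AC and MUC5B were thus lower without overlap with and without this library, where 8.18% of all genes tested were lower in OVCAR5R without overlap. Nothing was read from this share for the members, because they were chosen on the same comparison and MUC5B passed the filter only through OVCAR5.

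**Figure D1:**
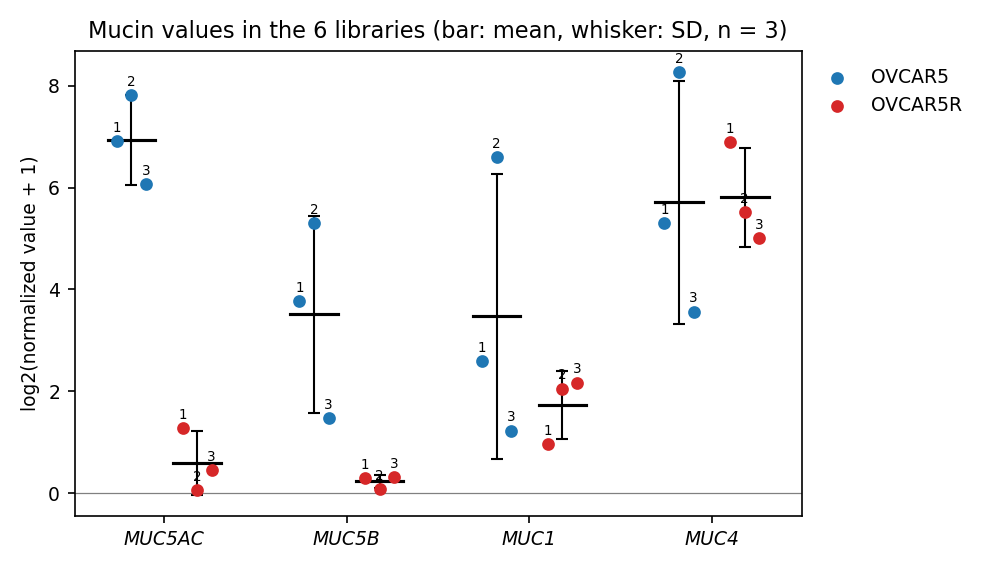
Values of MUC5AC, MUC5B, MUC1 and MUC4 as log2(normalized value + 1) in the 3 OVCAR5 (blue) and 3 OVCAR5R (red) libraries, with the replicate number above each point, the mean as a bar and the SD as whiskers. The OVCAR5R points of MUC5AC and MUC5B lie below all OVCAR5 points, those of MUC1 and MUC4 overlap them, and OVCAR5 replicate 2 is the highest OVCAR5 point of each gene.

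Levels of different mucins were compared per kb of the longest annotated transcript. In OVCAR5, MUC5AC had a normalized value of 6.89, 12.9 and 3.78 per kb in replicates 1, 2 and 3, above 40.9%, 59.5% and 28.9% of the 12233 rows with a known length. In OVCAR5R it was above 2.40%, 1.54% and 1.76% of these rows. MUC5AC was the most abundant member per kb in OVCAR5 replicates 1 and 3, where MUC1 had 1.20 and 0.322 and MUC5B had 0.704 and 0.0984. In OVCAR5 replicate 2 the order changed, and MUC1 with 23.1 per kb was above MUC5AC. In the OVCAR5R libraries MUC1 was the most abundant member, with 0.226, 0.755 and 0.840 per kb, against at most 0.0810 for MUC5AC and 0.0138 for MUC5B. The ratio of MUC5AC to MUC5B per kb varied from 6.01 to 38.4 among the OVCAR5 libraries and from 0.684 to 6.42 among the OVCAR5R libraries. Few reads stand behind the OVCAR5R ratios. In OVCAR5R replicate 2, with the ratio of 0.684, MUC5AC had 2 and MUC5B 3 estimated reads, so nothing was read from their spread.

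A promoter sequence was at hand for 1 of the 3 members, MUC1, and is shown because it is the only one that can be read here. MUC5AC and MUC5B had no entry. The 250 bases before the first listed start of MUC1 (RefSeq, GRCh38.p14, chr1:155192916-155193165, minus strand) are printed 5′ to 3′, with the GC boxes GGGCGG and the TATA box TATAAA in capitals.
MUC1: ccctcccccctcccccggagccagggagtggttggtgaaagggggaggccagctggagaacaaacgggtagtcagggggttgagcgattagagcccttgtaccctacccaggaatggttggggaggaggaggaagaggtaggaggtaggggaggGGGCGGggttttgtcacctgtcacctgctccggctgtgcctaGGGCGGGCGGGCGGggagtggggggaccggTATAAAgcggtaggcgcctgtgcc
Searched on both strands, GGGCGG occurred 4 times, with 3 of the matches overlapping, and TATAAA once, 24 bases before the start. Of 35116 promoters in the same table, 42.6% held GGGCGG and 10.7% held TATAAA in the same 250 bases. The FOXA core word TGTTTAC, held by 2.98% of the promoters, is not in this window of MUC1. The same is true of the GATA word AGATAA (9.17%), of the AP-1 word TGANTCA, in which N is any base (6.57%), and of the E-box CACGTG (6.34%).

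Genes around MUC5AC could not have a lower log2 fold change than MUC5AC, because it was chosen as the lowest gene. Their values are therefore given without a comparison to it. Of the genes tested, 43 other than MUC5B start within 1 Mb of MUC5AC, with a median log2 fold change of -0.04. The nearest tested genes were AP2A2, a clathrin adaptor subunit at -233 kb between gene starts (0.24, adjusted p = 0.729, limma, and 0.0704 without OVCAR5 replicate 2), and TOLLIP, an inhibitor of Toll-like receptor signaling at 152 kb (-0.04, adjusted p = 0.969, limma). By limma, 0 of these 43 neighbours passed an adjusted p of 0.05, which 0.119% of all genes tested did. An unadjusted limma p of 0.05 was passed by 5 neighbours, all lower in OVCAR5R, and by 10.4% of all genes tested in either direction. The genes at the ends of the range are named here because of their values. The lowest was the imprinted transcript H19 (-2.41, standard error 0.97, adjusted p = 0.449, limma, and -1.31 without OVCAR5 replicate 2), followed by the lysosomal protease CTSD (-1.34, standard error 0.31, adjusted p = 0.243, limma). The highest was the kinase gene BRSK2 with 0.63, and 0.35 without OVCAR5 replicate 2. Around MUC1, the median log2 fold change over 43 tested genes was 0.10, and by limma 0 passed an adjusted and 4 an unadjusted p of 0.05. The nearest ones, KRTCAP2 and MTX1, which lie on either side, had log2 fold changes of -0.12 and 0.15 (adjusted p = 0.921 and 0.873, limma).

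**Figure D2:**
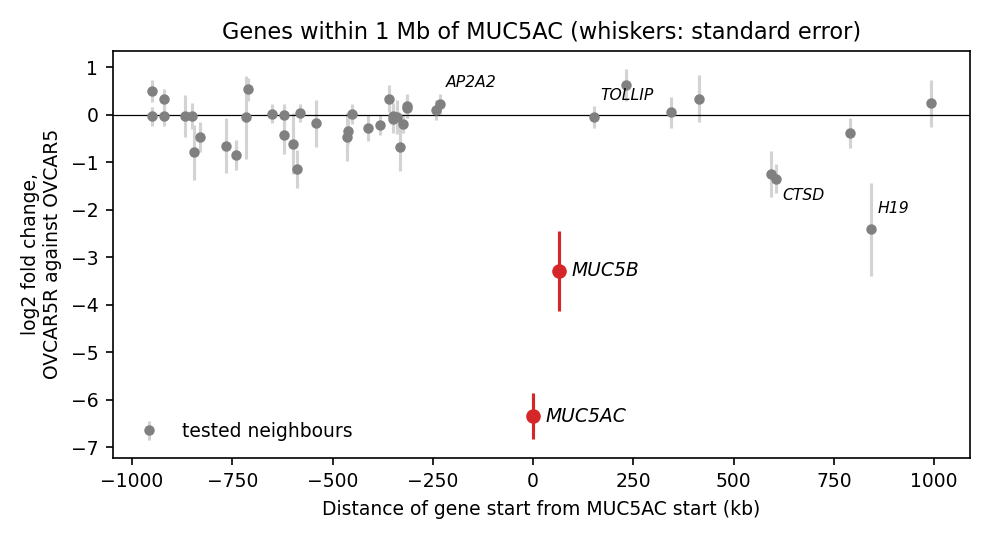
Log2 fold change of OVCAR5R against OVCAR5 for MUC5AC and MUC5B (red) and the 43 other tested genes that start within 1 Mb of MUC5AC (grey), against the distance between gene starts in kb, with standard errors as whiskers. The neighbours lie between -2.41 and 0.63. The nearest tested genes on either side of the mucin pair, AP2A2 and TOLLIP, lie at 0.24 and -0.04.

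Genes that act with mucins were taken from 7 lists of 140 different genes, of which 83 were tested. By limma, 0 of these 83 genes passed an adjusted p of 0.05, while an unadjusted p of 0.05 was passed by 9 that were lower and 3 that were higher in OVCAR5R, against 10.4% of all genes tested in either direction. Libraries did not overlap for 11 genes that were lower (13.3% of the 83, against 8.18% of all genes tested) and for 3 that were higher (3.61%, against 8.4%). Their median log2 fold change was -0.20, against -0.01 over all genes tested, and -0.14 without OVCAR5 replicate 2. That replicate was the highest OVCAR5 library for 53.0% of the 83 genes, and its part in the lower values was not tested. The lists were chosen with earlier results of these data known, so these shares and medians are a description only.

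AGR2, a protein disulfide isomerase of the endoplasmic reticulum that is needed for the folding and secretion of gel-forming mucins, had the next lowest log2 fold change after MUC5AC. It was singled out after its values were seen. OVCAR5 replicates 1, 2 and 3 had normalized values of 155, 893 and 10.5, and the OVCAR5R replicates in that order had 1.07, 1.39 and 0.429. Every OVCAR5R library was below every OVCAR5 library, while the OVCAR5 libraries differed among themselves by 84.9 times, in the same order as for MUC5AC and MUC5B. On the log2 scale the difference was -5.93 (standard error 1.31), with an adjusted p of 0.220 by limma. The call depended on OVCAR5 replicate 3, without which it was -7.60 (adjusted p = 0.0406, limma). Without OVCAR5 replicate 2 it was -4.46 and did not pass, and the mean of OVCAR5 was then 85.5 times that of OVCAR5R. Of the 17 genes listed for mucin folding and mucus partners, 7 were tested. Of these 7, 6 had a log2 fold change below 0, as did 50.8% of all genes tested. The list median was -0.50, and -0.32 without OVCAR5 replicate 2. That replicate was the highest OVCAR5 library for 6 of the 7 genes, against 37.7% of all genes tested. XBP1, a transcription factor of the unfolded protein response, also chosen after its values were seen, differed by -1.13 on the log2 scale (standard error 0.40, adjusted p = 0.391, limma), with values of 42.4 to 116 in OVCAR5 and 23.1 to 47.0 in OVCAR5R. These values overlapped between the lines. The secreted lectin gene ZG16B had -0.93 (standard error 0.44, adjusted p = 0.509, limma) and no overlap, and -0.41 without OVCAR5 replicate 2.

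O-glycosylation of mucins is started by polypeptide GalNAc-transferases, of which 13 were tested. Their median log2 fold change was -0.27, with 9 below and 4 above 0. By limma, 0 of the 13 passed an adjusted p of 0.05 and 4 an unadjusted p of 0.05, against 10.4% of all genes tested. Libraries did not overlap for 4 genes that were lower and 1 that was higher, against 8.18% and 8.4% of all genes tested. GALNT5 had normalized values of 17.6 to 55.3 in OVCAR5 and 7.84 to 12.1 in OVCAR5R (log2 fold change -1.68, standard error 0.40, adjusted p = 0.260, limma). GALNT9 had 8.35 to 12.6 in OVCAR5 and 3.43 to 4.58 in OVCAR5R (-1.20, standard error 0.28, adjusted p = 0.243, limma). GALNT12 was lower without overlap as well (-2.06, standard error 0.76, adjusted p = 0.406, limma), but its fold change was -1.07 without OVCAR5 replicate 2, in which it reached 44.8.

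Among 15 tested genes that extend and cap O-glycans, the median log2 fold change was -0.22. B4GALT5, a galactosyltransferase, had values of 188 to 398 in OVCAR5 and 104 to 167 in OVCAR5R (log2 fold change -1.07, standard error 0.31, adjusted p = 0.306, limma). ST3GAL1, which adds sialic acid to the core of O-glycans, had 231 to 312 in OVCAR5 and 118 to 194 in OVCAR5R (-0.70, standard error 0.26, adjusted p = 0.401, limma, and -0.46 without OVCAR5R replicate 2). These 2 genes were the ones without overlap on this list, where 8.18% of all genes tested were lower without overlap. With limma, 0 of the 15 passed an adjusted and 2 an unadjusted p of 0.05, against 0.119% and 10.4% of all genes tested. The 16 tested genes of mucin granule exocytosis, which include the SNARE proteins and the Rab proteins that act in the release of secretory granules, had a median of 0.02 and log2 fold changes between -0.56 and 0.38. On this list 0 genes passed an unadjusted or adjusted p of 0.05 with limma, against 10.4% and 0.119% of all genes tested. For 0 genes the libraries did not overlap, against 8.18% lower and 8.4% higher among all genes tested.

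Of the transcription factors of mucous lineages, 13 were tested, with a median log2 fold change of -0.25. An adjusted p of 0.05 was passed by 0 and an unadjusted one by 3 with limma, against 0.119% and 10.4% of all genes tested. The libraries of 2 lower genes and 1 higher gene did not overlap, against 8.18% and 8.4% of all genes tested. FOXA2, a forkhead factor of endoderm and glands, had values of 16.9 to 32.5 in OVCAR5 and 2.11 to 11.5 in OVCAR5R (log2 fold change -1.99, standard error 0.50, adjusted p = 0.283, limma). Its relative FOXA1, named after its values were seen, had 3.87, 12.2 and 2.86 in OVCAR5 and 9.58, 16.2 and 12.6 in OVCAR5R, with overlap (1.11, standard error 0.47, adjusted p = 0.464, limma). Without OVCAR5 replicate 2, FOXA1 had 1.64 and no overlap. GATA4, a zinc finger factor of the upper gut, had 8.84, 24.3 and 5.70 in OVCAR5 and 28.3, 32.0 and 28.3 in OVCAR5R (1.36, standard error 0.45, adjusted p = 0.362, limma). The call for GATA4 depended on OVCAR5 replicate 2, without which the log2 fold change was 1.91 (adjusted p = 0.0458, limma). SP1, a general GC box binding factor, had -0.39 (standard error 0.20, adjusted p = 0.537, limma) without overlap, and -0.25 without OVCAR5 replicate 1. The epithelial ETS factors ELF3 and EHF, chosen after their values were seen, had 418 and 143 in OVCAR5 replicate 2 but at most 34.4 and 8.41 in the other OVCAR5 libraries, and 2.62 to 23.2 and 0.716 to 13.1 in OVCAR5R. Their libraries overlapped between the lines, and as for MUC1, OVCAR5 replicate 2 was far above the rest.

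**Figure D3:**
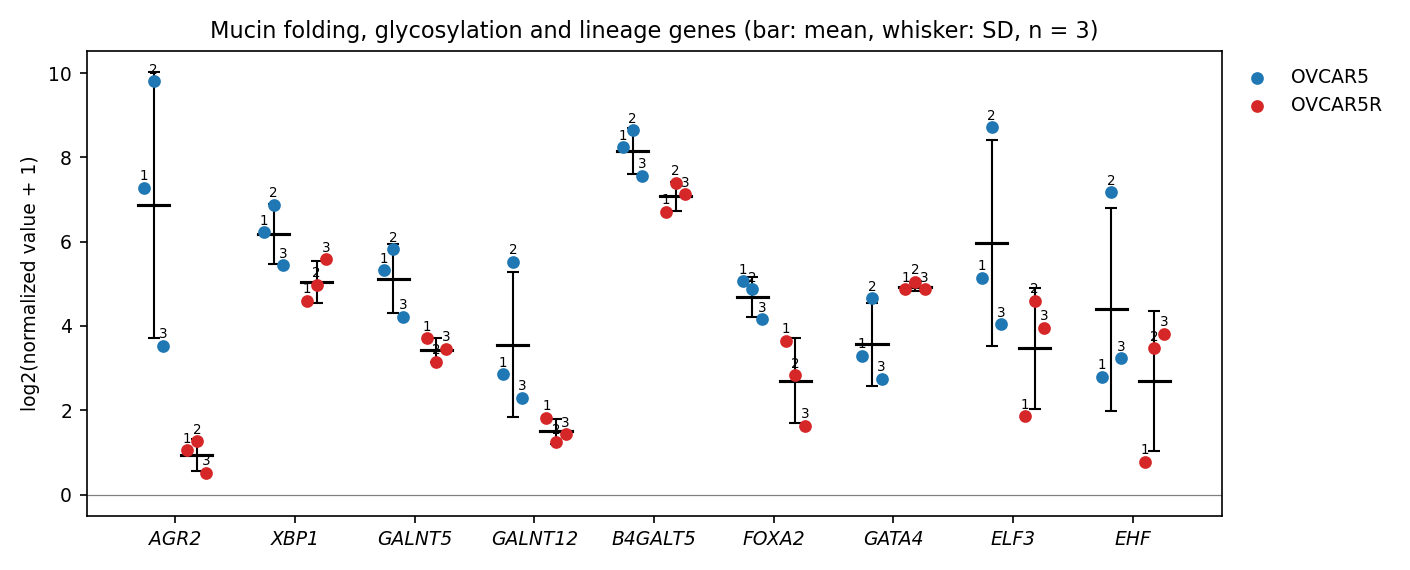
Values of genes for mucin folding (AGR2, XBP1), O-glycosylation (GALNT5, GALNT12, B4GALT5) and transcription factors (FOXA2, GATA4, ELF3, EHF) as log2(normalized value + 1) in the 3 OVCAR5 (blue) and 3 OVCAR5R (red) libraries, with replicate numbers, means as bars and SDs as whiskers. AGR2 has the widest gap between the lines, GATA4 is the gene shown that is higher in every OVCAR5R library, and OVCAR5 replicate 2 is high for ELF3 and EHF.

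The partners and sheddases of membrane mucins had a median log2 fold change of -0.17 over 15 tested genes. Of these, 0 passed an adjusted and 1 an unadjusted p of 0.05 with limma, against 0.119% and 10.4% of all genes tested. The libraries of 1 lower and 1 higher gene did not overlap, against 8.18% and 8.4% of all genes tested. LGALS3, the galectin that binds glycans of MUC1, had values of 166 to 395 in OVCAR5 and 117 to 157 in OVCAR5R (log2 fold change -0.88, standard error 0.32, adjusted p = 0.401, limma, and -0.54 without OVCAR5 replicate 2). GRB2, an adaptor that binds the tail of MUC1, had 0.25 (standard error 0.20, adjusted p = 0.695, limma) and no overlap, and 0.10 without OVCAR5 replicate 1. MSLN, the ligand of MUC16, had values of at most 6.11 in every library.

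Of 20 other mucin and mucin-like genes on the list, 4 were tested, and none had libraries without overlap. Among all genes tested, 8.18% were lower and 8.4% higher in OVCAR5R without overlap. MUC4 on chromosome 3 had normalized values of 38.3, 308 and 10.8 in the parental replicates 1, 2 and 3 and 118, 44.7 and 31.3 in the resistant ones (log2 fold change 0.10, standard error 1.06, adjusted p = 0.988, limma). The direction of MUC4 changed with single libraries, from -0.98 without OVCAR5 replicate 3 to 1.38 without OVCAR5 replicate 2. Per kb, MUC4 had 6.92, 2.61 and 1.83 in the OVCAR5R libraries, above MUC1 in each of them. The sialomucins CD164 and PODXL, which have mucin domains, had log2 fold changes of -0.13 and 0.39, and PODXL2 had -0.73 (adjusted p between 0.660 and 0.988 for the 4 genes, limma). The direction turned for PODXL without OVCAR5 replicate 2 (-0.21) and for CD164 without OVCAR5R replicate 3 (0.12) or OVCAR5 replicate 1 (0.0707), and PODXL2 had -0.12 without OVCAR5R replicate 1.

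**Figure D4:**
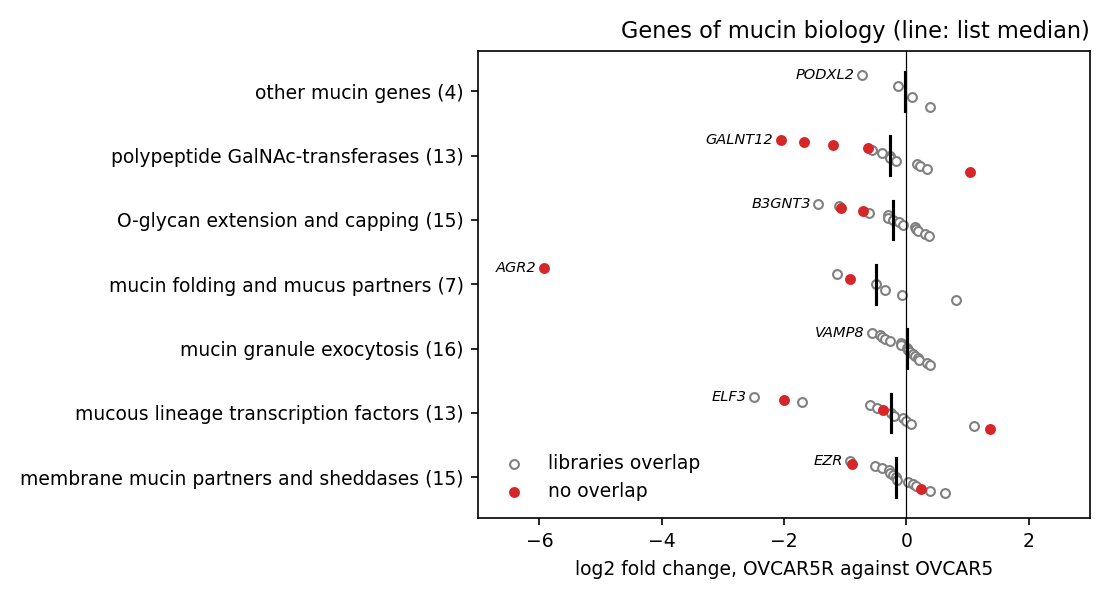
Log2 fold change of OVCAR5R against OVCAR5 for the tested genes of 7 lists of mucin biology (number tested in brackets), with the lowest gene of each list named, filled points where the libraries did not overlap and a line at each list median. AGR2 stands at -5.93, and the list medians lie between -0.50 and 0.02.

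By the likeness of their values over the 6 libraries, the genes closest to MUC5AC were NR2F1, SPRY1, STS, CALB1 and DUSP4, with Pearson's r between 0.980 and 0.993 on the log2 scale among 1220 genes that varied by at least 2. NR2F1, an orphan nuclear receptor, had values of 10.2, 14.5 and 4.99 in the parental replicates 1, 2 and 3 and 0.697, 0.0724 and 0.242 in the resistant ones. Its order of the libraries was the same as that of MUC5AC in every place. SPRY1 and DUSP4 are feedback inhibitors of ERK signaling, STS is steroid sulfatase and CALB1 is a calcium binding protein. All 5 genes were lower in OVCAR5R without overlap, and they were picked for their likeness to MUC5AC, so no test applies. MUC5B ranked 45 in this order (r = 0.902), AGR2 ranked 38 (0.915) and MUC1 ranked 448 (0.567). These r values describe 6 libraries, 3 from each line, and include the difference between the lines.

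Marker genes of ovarian, gut and other cells were looked up to describe the cells. Many of them had no row, so the label of the cells could not be settled from these values. Of 10 Müllerian and serous ovarian markers, 6 had a row. PAX8 had values of 8.38 to 11.4 in OVCAR5 and 4.38 to 5.66 in OVCAR5R, while the serous marker WT1 was near 0, with at most 0.0731 in OVCAR5 and 0.727 in OVCAR5R. MECOM had 16.4 to 42.7 in OVCAR5 and 5.63 to 7.99 in OVCAR5R (log2 fold change -1.98, adjusted p = 0.148, limma), and passed the threshold without OVCAR5 replicate 2 (-2.38). FOLR1 was at most 16.5 and MSLN at most 6.11, and KRT7, which is shared by many glands, had 85.8 to 939 in OVCAR5 and 431 to 583 in OVCAR5R and passed the threshold without OVCAR5 replicate 2 (log2 fold change 2.44). Of 10 intestinal and 10 gastric surface markers, 2 and 1 had a row. The intestinal factor CDX2 had values of 2.48 to 7.67 in OVCAR5 and 2.58 to 4.55 in OVCAR5R, the keratin KRT20 had 250.3 in OVCAR5 replicate 2 and at most 22.9 elsewhere, and PSCA had 300.2 in OVCAR5 replicate 2, 13.1 and 16.8 in the other OVCAR5 libraries and 2.31 to 6.43 in OVCAR5R. Of 9 markers of blood, stromal and endothelial cells, CD14, COL1A1 and PDGFRB had a row, with a summed value of 5.32 to 35.6 in OVCAR5 and 9.85 to 14.0 in OVCAR5R, highest in OVCAR5 replicate 2. The part of this in the mucin values was not tested.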

How the data were processed

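Total RNA of 3 OVCAR5 and 3 OVCAR5R cultures was sequenced. The authors deposited 1 table of a normalized signal on a linear scale, with 12309 rows by gene symbol (12308 different). Their supplementary methods state quartile normalization and log transformation before analysis; the submitters' processing notes name hg38, and the aligner, counter, annotation and gene filter are not given in the sources used here. In units of 1 estimated read per library, only 61.7% to 65.8% of values came out whole (within 0.005) and 100% had 2 decimals, so the signal was taken as scaled estimated reads and tests for counts were not used. The libraries held 35.8 to 55.1 estimated reads in units of 1e6 on the listed genes, and all 3 OVCAR5R libraries were deeper than the OVCAR5 libraries. Columns of per-sample values left unused numbered 0.

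Values were taken as log2(value + 1). Genes reaching 1 in 3 or more of the 6 libraries entered the test, which left 11766. They were compared with limma (version 3.58.1, under R 4.3.3, with lmFit, and eBayes with trend, no covariates, two-sided, Benjamini-Hochberg at 0.05 over all of them). The test was run on simulated data first. P-values measure the spread between cultures, which may be technical. An exact rank test of 3 against 3 cannot go below 0.1.

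The members and lists were chosen with earlier results of these data known. Named genes were the members, for each list the 3 highest and 3 lowest fold changes among genes with no overlap and a mean of at least 1 in the lower line, list genes past the threshold, the markers, the nearest tested neighbours and the 5 genes most like MUC5AC among those with a range of at least 2. Others are marked as chosen after their values were seen. Positions and lengths came from GENCODE release 29 (99.4% of symbols matched), promoters from RefSeq. Python version 3.11.15 and matplotlib version 3.10.9 were used. A stretch of the MUC5AC coding sequence is not reported here.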

Additional observations from a re-analysis of the deposited data

How the results depend on the processing

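The log2 fold change of MUC5AC stayed below 0 under all 13 alternatives tried, and lay between -6.78 and -5.90 when 1 library was left out. MUC5AC was chosen as the lowest gene and its libraries did not overlap. Leaving out 1 library could therefore not turn its sign. With a pseudocount of 0.1 it was -8.04 for MUC5AC and -5.22 for MUC5B, a change that follows from values below 1 in OVCAR5R. MUC5B lay between -4.31 and -2.39 and MUC1 between -2.87 and -0.18 when 1 library was left out, and a filter of at least 5 in 3 libraries dropped both. Over all genes, limma called 14 at an adjusted p of 0.05, with 0 to 29 when 1 library was left out and 0 by the exact rank test, which cannot pass the threshold with 3 against 3; at an unadjusted p under 0.05, limma had 1222. It was 29 without OVCAR5 replicate 2, 3 without OVCAR5 replicate 1, and 4, 2 and 0 without OVCAR5R replicates 1, 2 and 3. List genes called numbered 0 to 1 when 1 library was left out, with 1 (GATA4) without OVCAR5 replicate 2 and 1 (AGR2) without OVCAR5 replicate 3. Called neighbours numbered 0 under all 13 alternatives, with limma.

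The replicate block gave 5 genes over all genes, 0 list genes and 0 neighbours. Deviations of OVCAR5 and OVCAR5R libraries with the same number correlated at -0.00, 0.18 and -0.12, and 1 of 3 OVCAR5 libraries correlated best with its own number, so the numbers were not taken as pairs.

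With 1 library left out the sign changed for MUC4 (-0.98 to 1.38), TOLLIP (-0.22 to 0.0924), CD164 (-0.28 to 0.12), PODXL (-0.21 to 0.70, below 0 without OVCAR5 replicate 2), KRTCAP2 (-0.30 to 0.21, above 0 without OVCAR5 replicate 2) and MTX1 (-0.0672 to 0.40, below 0 without OVCAR5 replicate 1). KRT7 (2.44) and MECOM (-2.38) passed the threshold without OVCAR5 replicate 2. Where not stated, the cause was not tested. Alternatives for genes other than the members were added after seeing the data.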
